A study of Mus musculus with 15 samples.

Results

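The Notch genes described here are 4 ligand genes (Jag1, Jag2, Dll1 and Dll4), 3 receptor genes (Notch1, Notch2 and Notch4), the nuclear partner of the receptors (Rbpj) and a target gene (Hes1). They are 9 of the 18194 genes with a probe set on Affymetrix Mouse Genome 430 2.0 arrays, and they were taken by symbol from the array annotation, with the probe set of highest mean over all 15 arrays standing for each gene. The arrays measured dendritic cells (DCs) sorted from mouse lymphoid organs in 5 groups of 3 arrays. The tested groups were mature CCR7+ cells of the thymus, CCR7+ cells taken from spleen 18 h after an intraperitoneal injection of 10 µg polyI:C (a synthetic double-stranded RNA), and CCR7+ cells from spleens of mice left untreated. They were set against immature CCR7- cells of thymus and of untreated spleen. All cells were gated as CD11c+ CD317- CD172a-, with CD117- CCR7+ marking the mature and CD117+ CCR7- the immature fraction. No CCR7- cells of polyI:C-treated mice were measured, so 1 set of spleen CCR7- arrays served for both spleen comparisons. The labels give neither strain nor age, nor whether replicates came from separate mice, pools or sort days, so the p-values reflect only how much these samples vary, which may be technical variation.

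Notch receptors are single-pass membrane proteins that are cut by ADAM proteases and then by gamma-secretase when a ligand of the Jagged or Delta-like family on a neighbouring cell pulls on them. The freed intracellular part enters the nucleus, binds RBPJ and switches on target genes such as Hes1, a transcriptional repressor. In the thymus, Notch1 signalling commits progenitors to the T cell lineage. In the mouse spleen, Notch2 signalling is needed for some CD11b+ DCs and for marginal zone B cells, and ligands carried by DCs can signal to T cells.

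The label XCR1+ DC was checked against transcripts. XCR1 itself was not among the gates. Xcr1, the receptor gene that defines these DCs, had a mean log2 signal of 5.25 in thymus CCR7+ cells and 11.40 in thymus CCR7- cells. It had 7.54 in spleen CCR7+ cells after polyI:C and 8.03 in untreated spleen CCR7+ cells, against 11.58 in spleen CCR7- cells. The summed linear signal of the 12 XCR1+ DC markers with a probe set ran from 12918 to 15319 in thymus CCR7+ cells and from 44502 to 49861 in thymus CCR7- cells. It was 13308 to 15684 after polyI:C and 18654 to 26989 in untreated spleen CCR7+ cells, against 53068 to 58134 in spleen CCR7- cells. Whether CCR7+ and CCR7- cells were one kind of DC was not tested, and fewer cells of a type and less RNA per cell cannot be told apart in such samples. The untreated spleen CCR7+ arrays were the most spread (mean correlation with their group of 0.964 to 0.971, against 0.980 to 0.990 on the other arrays), and replicate 1 of them lay farthest from its group.

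Jag1, Notch4, Hes1 and Dll1 had the widest ranges of group means among the members, and promoter sequence for Jag1, Dll1 and Notch4 was at hand. Jag1 lies on chromosome 2 (chr2:137081451-137116520), Dll1 on chromosome 17 (chr17:15367354-15376932) and Notch4 on the same chromosome (chr17:34564286-34588543), all in GRCm38.p6. The 250 bases before a RefSeq transcript start are shown for each, 5′ to 3′ along the gene, because the signals of these genes moved. The arrays do not show which start was used. The Jag1 stretch is chr2:137116521-137116770 on the minus strand, the Dll1 stretch chr17:15376933-15377182 on the minus strand and the Notch4 stretch chr17:34564045-34564294 on the plus strand. Capitals mark a match to the NF-kB consensus.
Jag1: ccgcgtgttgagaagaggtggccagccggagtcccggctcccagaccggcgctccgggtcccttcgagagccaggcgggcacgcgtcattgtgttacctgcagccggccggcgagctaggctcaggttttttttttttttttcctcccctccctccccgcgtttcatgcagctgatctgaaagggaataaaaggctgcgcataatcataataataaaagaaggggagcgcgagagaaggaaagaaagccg
Dll1: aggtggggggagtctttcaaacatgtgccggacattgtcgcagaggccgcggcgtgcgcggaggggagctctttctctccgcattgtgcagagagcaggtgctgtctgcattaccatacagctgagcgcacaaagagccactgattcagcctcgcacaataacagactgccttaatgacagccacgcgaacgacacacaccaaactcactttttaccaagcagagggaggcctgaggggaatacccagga
Notch4: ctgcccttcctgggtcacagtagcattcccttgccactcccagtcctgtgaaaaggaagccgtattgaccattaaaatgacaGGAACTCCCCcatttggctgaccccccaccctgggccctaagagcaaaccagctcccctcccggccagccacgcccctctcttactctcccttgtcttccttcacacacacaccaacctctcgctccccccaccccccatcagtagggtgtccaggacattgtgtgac
Of the 9 members, 8 had such a stretch in the RefSeq table and 10 stretches were read in all. Both strands were searched for the RBPJ core GTGGGAA, for the interferon-stimulated response element (a pair of GAAA runs with any 2 bases between them) and for the NF-kB consensus. The Notch4 stretch held the NF-kB consensus 168 to 159 bases before the start, on the strand opposite to the gene. The Jag1 stretch and the Dll1 stretch shown held none of the 3 motifs. An inner Dll1 start, a Dll4 start and a Notch2 start also held the NF-kB consensus, and no member held the RBPJ core or the interferon element. Over 32851 promoter stretches of the same length the NF-kB consensus was found in 7.25%, the RBPJ core in 5.42% and the interferon element in 2.98%. A match is a string of letters in this window and not a measured binding site.

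In all 3 comparisons of CCR7+ with CCR7- cells (thymus, untreated spleen and spleen after polyI:C) Jag1 was higher, and Notch4, Hes1 and Notch2 were lower, in the mature cells. Dll1 was higher after polyI:C. A gene is called here when its p from limma's moderated test on log2 signals, adjusted by Benjamini-Hochberg across all 13629 tested genes, was under 0.05. In thymus 1 member was called higher and 4 lower, where 37.3% of all genes tested were called (16.8% higher and 20.4% lower). In untreated spleen 1 was called higher and 4 lower, where 36.5% of all genes were called (12.3% higher, 24.1% lower). After polyI:C, against untreated spleen CCR7- cells, 2 were called higher and 4 lower, where 46.4% of all genes were called (18.4% higher, 28% lower). The members called were 55.6%, 55.6% and 66.7% of 9, and with so few members each one counts for 11.1%. The median log2 fold change over the members was -0.37 in thymus, -0.48 in untreated spleen and -0.32 after polyI:C, and over all genes tested it was -0.06, -0.03 and 0.02. All 9 members were tested. A gene was tested when its log2 signal exceeded 4.39, the 40th percentile of all values, on at least 3 arrays. Of the members, 7 exceeded it on all 15 arrays, Jag1 on 13 and Notch4 on 9. Jag1 lay below it only on spleen CCR7- arrays, and Notch4 only on the thymus CCR7+ and polyI:C CCR7+ arrays.

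**Figure D1:**
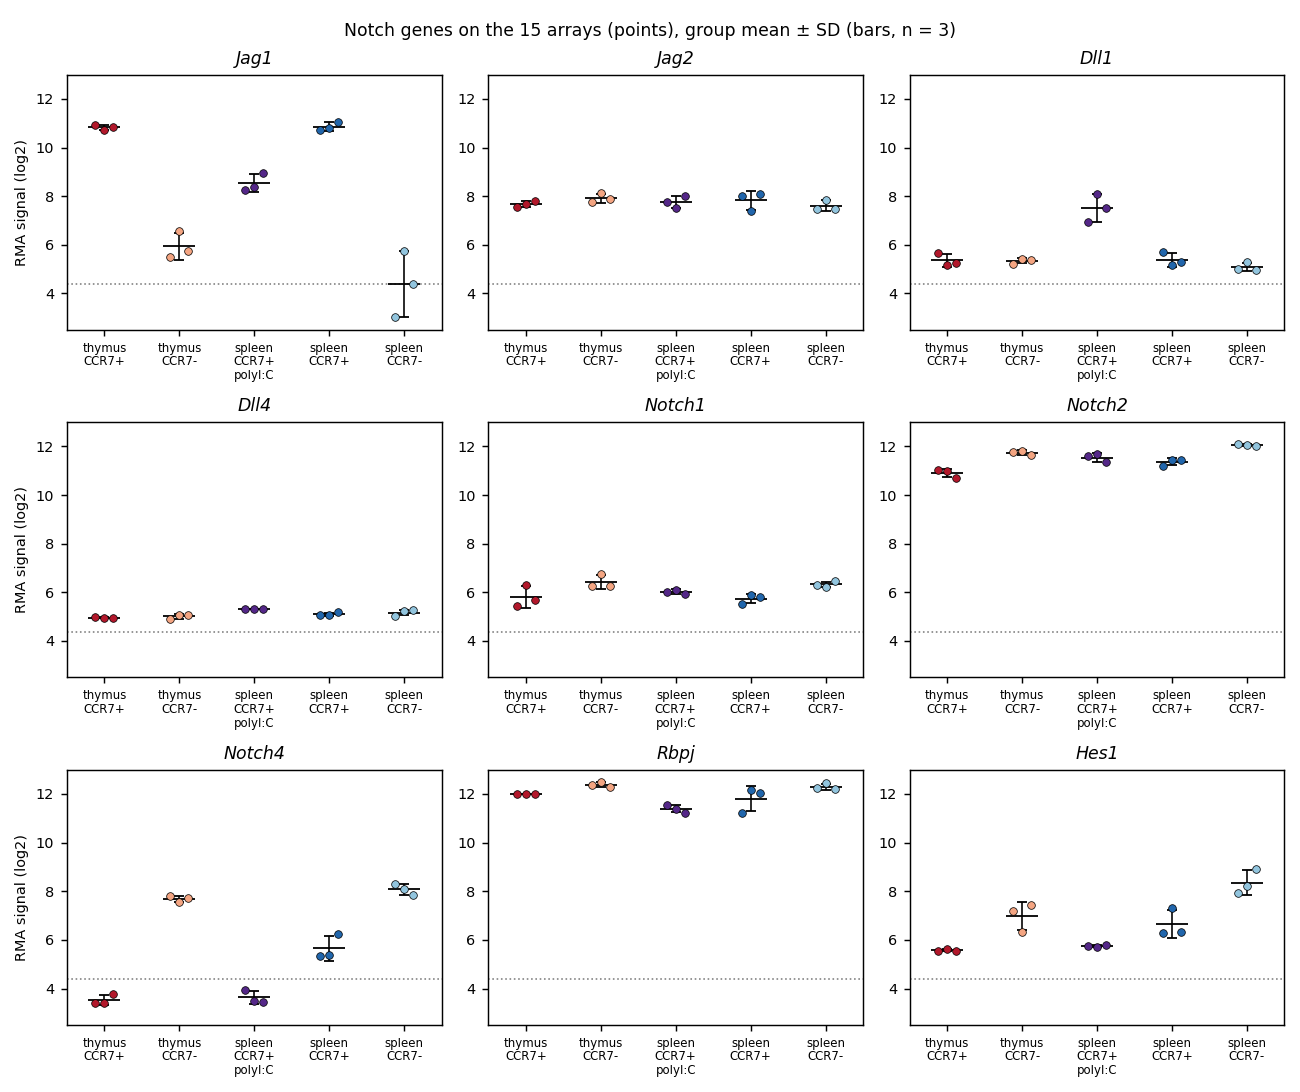
The log2 RMA signal of each Notch gene on the 15 arrays is plotted by group (points, with the group mean and SD, n = 3); the dotted line is the filter value of 4.39. Jag1 is high in thymus and untreated spleen CCR7+ cells, Notch4 is high in both CCR7- groups, and Dll1 stands out only after polyI:C.

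Jag1 encodes Jagged1, a ligand that can bind all Notch receptors. Its log2 signal was 10.93, 10.73 and 10.86 on the thymus CCR7+ arrays, against 5.48, 6.58 and 5.74 on the thymus CCR7- arrays. All mature arrays lay far above all immature ones. The log2 fold change was 4.91 (standard error 0.48, adjusted p = 2e-06), a linear fold of 30.0. In the untreated spleen Jag1 was at 10.70, 10.81 and 11.06 in CCR7+ cells, against 3.02, 5.73 and 4.38 in CCR7- cells. The groups were again far apart, and the immature arrays were spread widely around the filter value. The log2 fold change was 6.48 (standard error 0.48, adjusted p = 2.52e-07), and it ranged from 5.80 to 7.16 when single arrays were left out. The spleen CCR7- mean of Jag1 lay just below the filter value, at the low end of the array's range, which limits how exactly this difference and those between the tissues' immature cells are known. After polyI:C the signal was 8.26, 8.39 and 8.94, between those of untreated CCR7+ and CCR7- cells and overlapping neither. Against spleen CCR7- cells this was a log2 fold change of 4.16 (adjusted p = 6.6e-06).

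Jag1 was lower in CCR7+ spleen cells after polyI:C than in CCR7+ cells of untreated spleens, with a log2 fold change of -2.32 (standard error 0.48, 95% confidence interval -3.36 to -1.29, adjusted p = 0.00383). Thymus CCR7+ cells had 2.31 more than polyI:C CCR7+ cells (adjusted p = 0.00311). Mature cells of the 2 tissues in the steady state were level, with a difference of -0.02 and a 95% confidence interval from -1.05 to 1.02. In order of mean level, untreated spleen CCR7+ cells (10.86) and thymus CCR7+ cells (10.84) came first and were not distinguishable. PolyI:C CCR7+ cells (8.53) stood apart from both, and also from thymus CCR7- cells (5.93; difference 2.60, adjusted p = 0.000412). Thymus CCR7- cells and spleen CCR7- cells (4.38) overlapped.

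Jag2 encodes Jagged2, the second Jagged ligand. It was expressed at a middling and even level, with all 15 arrays between 7.38 and 8.12. Jag2 was called in no comparison, and its changes with maturation were -0.24 (95% confidence interval -0.67 to 0.18) in thymus, 0.23 (-0.20 to 0.65) in untreated spleen and 0.16 (-0.27 to 0.58) after polyI:C. Its second probe set had a mean of 4.88 over all arrays, close to the filter value, and was called in no maturation comparison either.

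Dll1 encodes Delta-like 1, a ligand of Notch2 in the spleen. Its log2 signal was 6.93, 8.09 and 7.50 on the polyI:C arrays, against 5.69, 5.15 and 5.31 in untreated spleen CCR7+ cells and 4.99, 5.30 and 4.97 in spleen CCR7- cells. The lowest polyI:C array lay above every array of the other 4 groups. The log2 fold change was 2.42 against spleen CCR7- cells (standard error 0.25, adjusted p = 1.97e-06) and 2.12 against untreated CCR7+ cells (standard error 0.25, 95% confidence interval 1.59 to 2.65, adjusted p = 4.15e-05), a linear fold of 4.36. In thymus the values were 5.68, 5.18 and 5.24 in CCR7+ cells and 5.23, 5.44 and 5.39 in CCR7- cells, which overlap. Maturation without polyI:C gave 0.02 (95% confidence interval -0.51 to 0.54) in thymus and 0.30 (-0.23 to 0.83) in spleen, neither of them called. The polyI:C group thus came first in the order of levels and the other 4 groups, from 5.39 to 5.09, were not distinguishable from their neighbours. Dll1 had 1 probe set.

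Dll4 encodes Delta-like 4, the ligand through which thymic epithelium drives T cell commitment. It was dim, with all 15 arrays between 4.90 and 5.33, and it was called in no maturation comparison. Its group means ran from 5.33 after polyI:C to 4.97 in thymus CCR7+ cells. Only the comparison of thymus CCR7+ with polyI:C CCR7+ cells was called (-0.37, adjusted p = 0.0287). Without replicate 1, 2 or 3 of either group that call was lost (adjusted p from 0.0565 to 0.0809), and the second Dll4 probe set gave 0.04.

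**Figure D2:**
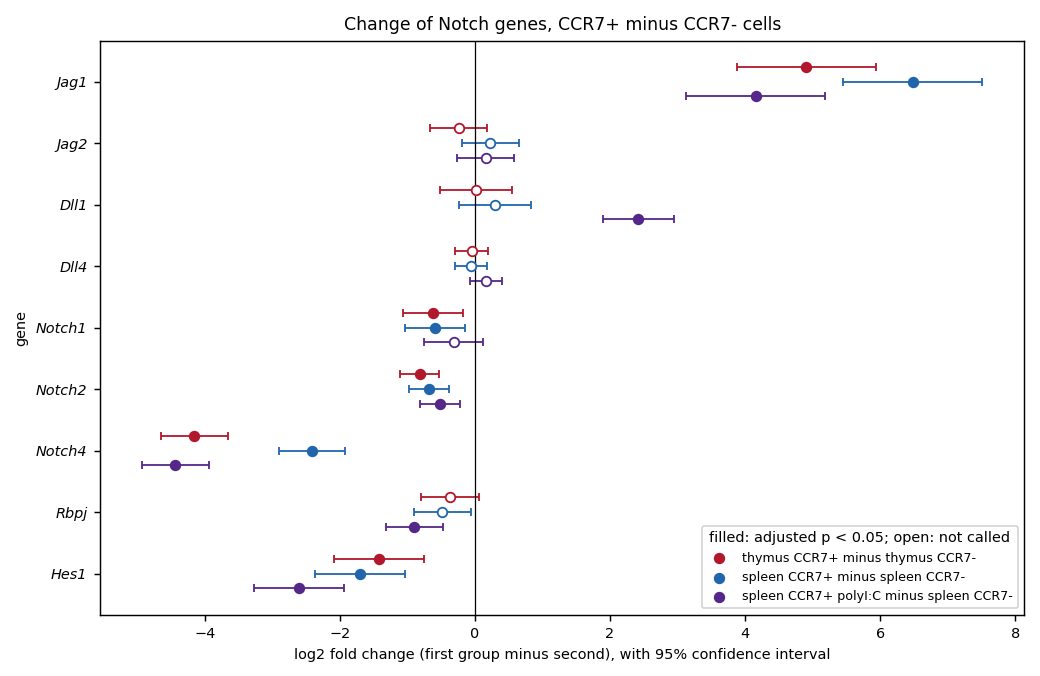
Log2 fold changes of the Notch genes, CCR7+ minus CCR7-, are plotted with 95% confidence intervals for thymus, untreated spleen and polyI:C spleen, with filled points where a gene was called; both spleen comparisons share the spleen CCR7- arrays. The Jag1 intervals lie above 0 in all comparisons, those of Notch4 lie below 0, and the Dll1 interval leaves 0 only after polyI:C.

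Notch4, a receptor best known from blood vessel endothelium, showed the largest falls among the members. It had log2 signals of 3.40, 3.42 and 3.78 in thymus CCR7+ cells, against 7.79, 7.54 and 7.74 in thymus CCR7- cells. The mature arrays all lay below the filter value and the immature ones far above it. The log2 fold change was -4.16 (standard error 0.23, adjusted p = 8.91e-09), that is 17.9-fold lower. In untreated spleen Notch4 was at 5.36, 5.37 and 6.26 in CCR7+ cells, against 8.29, 8.10 and 7.85 in CCR7- cells, a log2 fold change of -2.42 (standard error 0.23, adjusted p = 2.74e-06). After polyI:C it was at 3.96, 3.50 and 3.47, a log2 fold change of -4.44 against spleen CCR7- cells (adjusted p = 2.79e-09). None of these pairs of groups overlapped. Thymus and polyI:C CCR7+ cells lay below the filter value, at the low end of the array's range, which limits how exactly the size of a fall into them is known.

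The fall of Notch4 was larger in thymus than in untreated spleen. The thymus change minus the spleen change was -1.74 (standard error 0.32, 95% confidence interval -2.44 to -1.04, adjusted p = 0.00822), and Notch4 was the 1 member called in that comparison, in which 3.18% of all genes tested were called (1.79% higher and 1.39% lower). The value ran from -1.90 to -1.44 when single arrays were left out, and the call was kept. The immature cells of the tissues were close, with 7.69 in thymus CCR7- cells and 8.08 in spleen CCR7- cells, a difference of -0.39 that was not called (adjusted p = 0.442). The mature cells were apart, with 3.53 in thymus CCR7+ cells and 5.66 in untreated spleen CCR7+ cells, a difference of -2.13 (adjusted p = 3.41e-05). PolyI:C CCR7+ cells (3.64) differed from untreated spleen CCR7+ cells by -2.02 (adjusted p = 3.53e-05) and were not distinguishable from thymus CCR7+ cells (thymus minus polyI:C -0.11, 95% confidence interval -0.60 to 0.38). In the order of levels, spleen CCR7- and thymus CCR7- cells came first, untreated spleen CCR7+ cells stood between, and polyI:C and thymus CCR7+ cells came last.

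Notch2, the receptor used by splenic CD11b+ DCs and marginal zone B cells, had the highest signal of the 3 receptor probe sets on every array, though signals of different probe sets are not a measure of relative abundance. Notch2 had log2 signals of 11.04, 10.99 and 10.72 in thymus CCR7+ cells, against 11.79, 11.80 and 11.63 in thymus CCR7- cells. It fell by 0.82 on the log2 scale (standard error 0.14, adjusted p = 0.000255). In untreated spleen it was at 11.21, 11.44 and 11.46 in CCR7+ cells, against 12.11, 12.05 and 12.01 in CCR7- cells (-0.68, adjusted p = 0.00135). After polyI:C it was at 11.60, 11.69 and 11.34 (-0.51, adjusted p = 0.00655). The groups overlapped in none of the 3 comparisons, and the signal was high in all 5 groups. With the mean of both Notch2 probe sets, of which the second is dim, the spleen calls were lost (-0.29, adjusted p = 0.051, in untreated spleen and -0.0978, adjusted p = 0.492, after polyI:C). They were also lost in blocked fits of the groups compared (adjusted p = 0.0569 and 0.0597).

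Notch1, the receptor of T cell commitment, fell slightly in 2 of the comparisons. It was at 5.45, 6.30 and 5.67 in thymus CCR7+ cells, against 6.25, 6.77 and 6.28 in thymus CCR7- cells, and these overlap. The log2 fold change was -0.62 (standard error 0.20, adjusted p = 0.0257), and the call was lost without thymus CCR7- replicate 2 (-0.45), thymus CCR7+ replicate 1 (-0.45) or thymus CCR7+ replicate 3 (-0.55). In untreated spleen it was at 5.54, 5.89 and 5.80 in CCR7+ cells, against 6.32, 6.24 and 6.45 in CCR7- cells (-0.59, adjusted p = 0.0342), which do not overlap. That call was lost without any 1 of the spleen CCR7- arrays (adjusted p from 0.0529 to 0.103) and without spleen CCR7+ replicate 1 (0.117) or 3 (0.0563). After polyI:C Notch1 was not called (-0.32, 95% confidence interval -0.76 to 0.12). Thymus replicates 2 had both the highest Notch1 signal and the highest summed T cell marker signal of their groups, 2969 in CCR7+ cells and 690 in CCR7- cells. T cell markers were not alone in this. Both arrays also had the highest plasmacytoid DC, B cell, NK cell, endothelial and stromal, and thymic epithelial marker sums of their groups. Without thymus CCR7+ replicate 2 the log2 fold change was -0.87 (adjusted p = 0.00215). The part of these markers in the Notch1 result was not tested.

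Rbpj encodes the DNA-binding protein that turns Notch cleavage into transcription and represses the same genes when no Notch fragment is bound. Its signal was high and nearly even, with 12.02, 12.01 and 11.996 in thymus CCR7+ cells and 12.35, 12.48 and 12.30 in thymus CCR7- cells. These groups did not overlap, but the difference of -0.37 was not called (adjusted p = 0.168). In untreated spleen CCR7+ cells Rbpj was at 11.22, 12.14 and 12.05, against 12.24, 12.44 and 12.19 in CCR7- cells (-0.48, adjusted p = 0.0703). The low value was that of replicate 1, the array farthest from its group. After polyI:C it was at 11.53, 11.40 and 11.23 and differed from spleen CCR7- cells by -0.90 (standard error 0.20, adjusted p = 0.00159). The other 2 Rbpj probe sets gave -0.49 and -0.20 there, neither of them called. Against untreated spleen CCR7+ cells the polyI:C difference was -0.42 and not called (adjusted p = 0.173), and without untreated spleen CCR7+ replicate 1 it was -0.71 (adjusted p = 0.00252).

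Hes1, the target gene, fell with maturation in both tissues, and its mean fall was largest after polyI:C. The difference between polyI:C and untreated spleen CCR7+ cells was not called (-0.90, adjusted p = 0.0597). It was at 5.56, 5.61 and 5.53 in thymus CCR7+ cells, against 7.20, 6.34 and 7.42 in thymus CCR7- cells. The log2 fold change was -1.42 (standard error 0.31, adjusted p = 0.00214). In untreated spleen it was at 6.30, 7.30 and 6.33 in CCR7+ cells, against 7.94, 8.20 and 8.92 in CCR7- cells (-1.71, adjusted p = 0.000659). After polyI:C it was at 5.75, 5.70 and 5.79, 6.11-fold below spleen CCR7- cells (-2.61 on the log2 scale, adjusted p = 8.38e-06). No mature array overlapped the immature arrays of its tissue. The high value among untreated spleen CCR7+ cells was that of replicate 2, which also had the highest summed B cell marker signal of its group (4630, against 1425 and 1954 on its mates). This array was also the highest of its group for plasmacytoid DC, T cell, macrophage and monocyte, and endothelial and stromal marker sums. It was not the highest for CD172a+ DC or NK cell markers. Without that array the spleen log2 fold change was -2.04. The part of these markers in the Hes1 result was not tested.

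Between polyI:C and untreated CCR7+ cells of the spleen, 1 member was called higher (Dll1) and 2 lower (Jag1 and Notch4), where 18.2% of all genes tested were called (8.58% higher and 9.66% lower). Hes1 gave -0.90 and did not pass the test (adjusted p = 0.0597). It did pass without untreated spleen CCR7+ replicate 1 (adjusted p = 0.0431) or replicate 3 (0.0499), and without replicate 2 the adjusted p was 0.234. Without untreated spleen CCR7+ replicate 1, Rbpj and Hes1 were called as well.

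Between the tissues, 11.1% of the 9 members were called among immature cells and 33.3% among mature cells. The shares among all genes tested were 8.16% and 12.2%. Among immature cells, Hes1 was the 1 member called, lower in thymus CCR7- than in spleen CCR7- cells (-1.37, standard error 0.31, adjusted p = 0.0121), where 8.16% of all genes tested were called (4.92% higher and 3.24% lower). The arrays of these groups did not overlap. That call was lost without thymus CCR7- replicate 2 (-1.04, adjusted p = 0.061) or spleen CCR7- replicate 3 (-1.08, adjusted p = 0.0679). Jag1 was 1.56 higher in thymus CCR7- cells without passing the test (adjusted p = 0.0657), and without spleen CCR7- replicate 2 it was 2.23 higher (adjusted p = 0.0023). With the replicate number as a block in the fit Jag1 passed (adjusted p = 0.039). In a blocked fit of these 2 groups alone 4 members passed, namely Hes1, Jag1 (0.00986), Jag2 (0.32, adjusted p = 0.0478) and Notch2 (-0.32, adjusted p = 0.0479). That fit called 23.9% of all genes tested.

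Among mature cells, Notch4, Hes1 and Notch2 were called lower in thymus CCR7+ than in untreated spleen CCR7+ cells and no member was called higher, where 12.2% of all genes tested were called (8.71% higher and 3.47% lower). Hes1 differed by -1.08 (adjusted p = 0.0358) and Notch2 by -0.46 (adjusted p = 0.0447), both close to the threshold. The Hes1 call was lost without replicate 1, 2 or 3 of thymus CCR7+ cells (adjusted p from 0.0834 to 0.0948) and without replicate 2 of spleen CCR7+ cells (0.109). The Notch2 call was lost in 18 of 27 alternative settings, and in the blocked fit of these groups its adjusted p was 0.113. Between thymus CCR7+ and polyI:C CCR7+ cells, 2 members were called higher (Jag1 and Rbpj) and 3 lower (Dll1, Notch2 and Dll4), where 24.1% of all genes tested were called (16.7% higher and 7.4% lower). The log2 differences were -2.14 for Dll1 (adjusted p = 3.15e-05), -0.63 for Notch2 (adjusted p = 0.00437) and 0.62 for Rbpj (adjusted p = 0.0342). The Rbpj call was lost without any 1 thymus CCR7+ array (adjusted p from 0.0748 to 0.0877) and without polyI:C replicate 2 (0.0623) or 3 (0.123). Tissue and treatment differ at once between these 2 groups and cannot be told apart.

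The difference between the tissues in the maturation change itself was not called for 8 of the members. Jag1 gave a value of -1.57 (adjusted p = 0.275), which passed without spleen CCR7- replicate 2 (-2.25, adjusted p = 0.0313) and with the replicate number as a block within each maturation state (adjusted p = 0.0322).

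All 19 probe sets of the members were tested, and the other probe sets repeated some of the patterns and not others. For Jag1 all 3 probe sets were higher in CCR7+ cells, by 0.58, 3.52 and 4.91 in thymus, by 0.79, 4.003 and 6.48 in untreated spleen and by 0.34, 1.78 and 4.16 after polyI:C. All of these were called over the 29328 probe sets tested, and all 3 were lower after polyI:C than in untreated CCR7+ cells (-0.44, -2.22 and -2.32). For Notch4, a second probe set, with a mean of 4.15 over all arrays and so below the filter value, changed by -0.85 in thymus, -0.71 in untreated spleen and -0.68 after polyI:C, and each was called. The third Notch4 probe set had group means between 4.98 and 5.32 and gave -0.02, 0.29 and 0.35, of which the last was called. Neither of these 2 probe sets showed the tissue difference (-0.14 and -0.32, not called) or a fall after polyI:C against untreated CCR7+ cells (0.02 and 0.05). The second Notch2 probe set had a mean of 4.69 over all arrays, near the filter value, against 11.53 for the one used, and gave -0.20, 0.10 and 0.32 with no call. The second Notch1 probe set gave -0.16 in thymus (adjusted p = 0.368) and -0.34 in untreated spleen (adjusted p = 0.0502), neither of them called. Against polyI:C CCR7+ cells, the Jag1 probe set with the smallest changes was not called in thymus CCR7+ cells (0.25, adjusted p = 0.203). Hes1 and Dll1 had 1 probe set each.

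**Figure D3:**
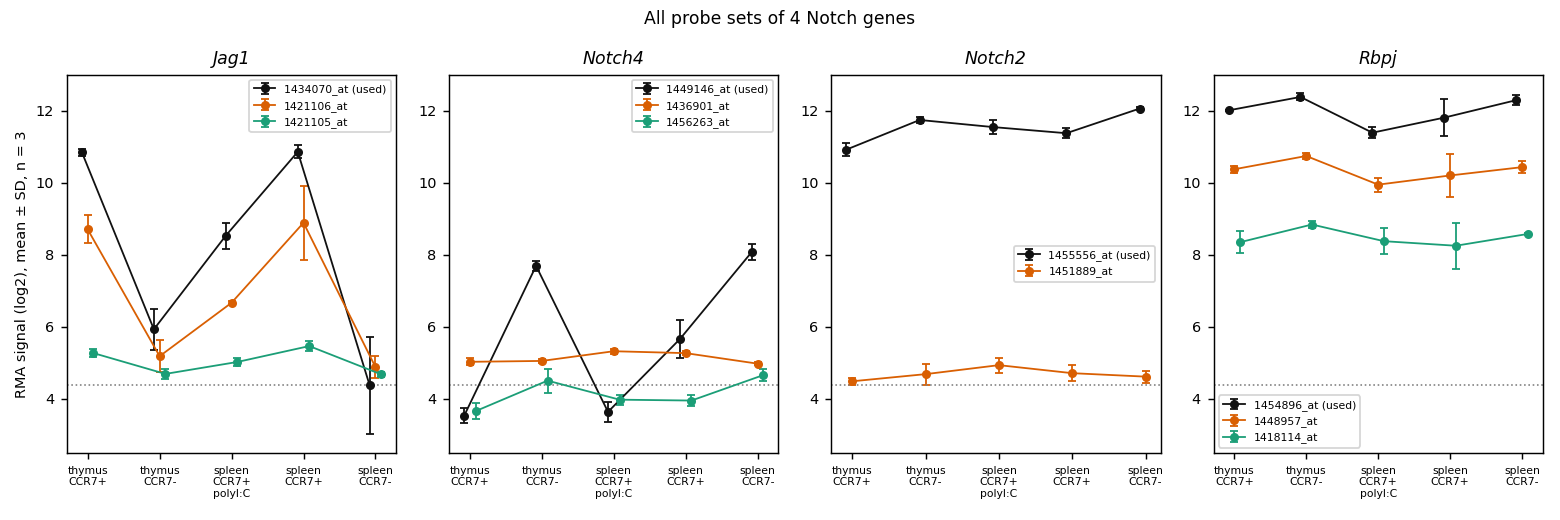
Group means and SD (n = 3) of the log2 RMA signal are plotted for every probe set of Jag1, Notch4, Notch2 and Rbpj, with the probe set used in black and the filter value dotted. The Jag1 probe sets move together at different amplitudes, whereas 1 of the Notch4 probe sets stays near 5 in all groups.

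Beyond the members, 81 genes of the pathway were listed by role, of which 76 had a probe set and 69 were tested (2 genes stand in 2 of the lists). In thymus 7 were called higher and 14 lower (30.4%), in untreated spleen 5 and 13 (26.1%) and after polyI:C against spleen CCR7- cells 7 and 24 (44.9%), each a smaller share than among all genes tested. None of the 5 other ligand and receptor genes tested was called in any comparison, where 3.18% to 46.4% of all genes tested were. Of these, Notch3, Dner and Cntn1 had group means from 3.90 to 4.76, near the filter value of 4.39, which limits what could be called. Dlk2 and Egfl7 ran from 5.63 to 6.97. Among genes of receptor cleavage, 1 of 8 was higher and 1 lower in thymus and in untreated spleen (25%, against 37.3% and 36.5% of all genes tested). These were Psen2 and Aph1b, which encode parts of gamma-secretase. After polyI:C, against spleen CCR7- cells, 1 was higher and 3 lower (50%, against 46.4% of all genes tested). There Adam17 (-0.95) and Aph1a (-0.65) were called lower as well. Psen2 was higher by 0.80 in thymus, 0.68 in untreated spleen and 1.31 after polyI:C, but with probe sets that can hybridise to several transcripts left out these values were -0.02, 0.07 and 0.17 with no call. Aph1b changed by -0.82, -1.23 and -1.44.

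Receptor glycosylation held a rise and a fall shared by all 3 maturation comparisons. Poglut1, the enzyme that adds O-glucose to Notch EGF repeats, averaged 12.17 in thymus CCR7+ cells and 10.31 in thymus CCR7- cells (1.86, adjusted p = 1.07e-06). It averaged 12.18 after polyI:C and 11.79 in untreated spleen CCR7+ cells, against 10.07 in spleen CCR7- cells (2.10 and 1.71). Mfng, a Fringe enzyme that extends O-fucose on the receptors and so alters which ligands they bind, changed by -1.34 in thymus, -1.17 in untreated spleen and -1.72 after polyI:C. Lfng, another Fringe gene, rose after polyI:C and averaged 7.97, against 6.997 in untreated CCR7+ cells (0.97, adjusted p = 0.00514) and 6.53 in CCR7- cells (1.44). In thymus and untreated spleen Lfng was not called.

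Genes that handle ligands on the sending cell were lower or not called. Of 8 tested, 2 were lower in thymus (25%), 2 in untreated spleen (25%) and 5 after polyI:C (62.5%), and none was higher. Over all genes tested, 20.4%, 24.1% and 28% were called lower in these comparisons, so the thymus and untreated spleen shares were near the background. Neurl1b, a ubiquitin ligase that acts on ligands, changed by -1.40, -1.30 and -1.73. Mib1, the ubiquitin ligase needed for ligand endocytosis and signalling in the mouse, averaged 7.31 after polyI:C, against 8.68 in untreated spleen CCR7+ cells (-1.37, adjusted p = 0.00174) and 9.16 in spleen CCR7- cells (-1.85, adjusted p = 3.19e-05). In thymus Mib1 was level, with 9.02 in CCR7+ cells and 8.997 in CCR7- cells. Neurl3 averaged 6.42 after polyI:C and 8.28 in untreated spleen CCR7+ cells (-1.86, adjusted p = 0.00107).

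Among 13 genes of receptor turnover and inhibition, the ubiquitin ligase gene Cbl changed by -1.60 in thymus, -2.06 in untreated spleen and -2.51 after polyI:C. Nedd4, another ubiquitin ligase gene, changed after polyI:C by -1.79 against untreated CCR7+ cells (adjusted p = 0.000563) and by -2.40 against CCR7- cells. Numb, an endocytic inhibitor of Notch, was 0.85 higher after polyI:C than in untreated CCR7+ cells (adjusted p = 0.0037), and Dtx3l was 1.03 higher (adjusted p = 0.0189). Dtx1, which is also a Notch target gene, averaged 6.29 in thymus CCR7+ cells and 8.03 in untreated spleen CCR7+ cells, a difference of -1.74 (adjusted p = 0.0107).

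Among nuclear partners of RBPJ, 6 coactivator genes were tested. Of these, 33.3% were called in thymus and 16.7% each in untreated spleen and after polyI:C. Kat2a, which encodes a histone acetyltransferase, changed by -1.79 in thymus, -1.86 in untreated spleen and -2.54 after polyI:C, and Maml1 was higher in thymus (0.85). Of 14 corepressor genes, 2 were higher and 5 lower in thymus, 1 and 6 in untreated spleen and 0 and 7 after polyI:C. That is 50% called in each comparison. The shares among all genes tested were 37.3%, 36.5% and 46.4%. Tle1 fell to 5.42 in thymus CCR7+ cells, against 7.18 in CCR7- cells (-1.75), and to 3.75 after polyI:C and 5.09 in untreated spleen CCR7+ cells, against 7.18 in spleen CCR7- cells (-3.42 and -2.09). Sap30 changed by -2.13, -1.58 and -1.52 and the histone deacetylase gene Hdac2 by -0.91, -1.19 and -1.79. Tle3, of the same Groucho family as Tle1, was higher by 1.15 in thymus and 1.20 in untreated spleen.

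Among the other Notch target genes some were higher and some lower. Of 12 tested, 1 was higher and 2 lower in thymus (25% called) and 2 and 0 in untreated spleen (16.7%). After polyI:C 2 were higher and 2 lower (33.3%). These are smaller shares than the 37.3%, 36.5% and 46.4% called among all genes tested. Hes5, Hes7, Hey1, Heyl and Ptcra had group means from 4.41 to 6.02. These lay at or not far above the filter value of 4.39, which limits what could be called. Myc changed by -2.27 in thymus and -2.04 after polyI:C, and Ccnd1 by -1.86 and -1.13. Il2ra, the gene of CD25, was higher by 0.84, 0.49 and 1.51, and Cdkn1a, a cell cycle inhibitor gene, by 2.47 in untreated spleen and 1.88 after polyI:C. Most of these genes are also controlled by other pathways. Between polyI:C and untreated spleen CCR7+ cells 8 pathway genes were called higher and 5 lower (18.8%), between thymus CCR7+ and polyI:C cells 10 and 4 (20.3%), between mature cells of the tissues 6 and 2 (11.6%) and between immature cells 1 and 1 (2.9%). In the same order, 18.2%, 24.1%, 12.2% and 8.16% of all genes tested were called. No pathway gene was called for the difference in maturation change between the tissues, where 3.18% of all genes tested were.

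**Figure D4:**
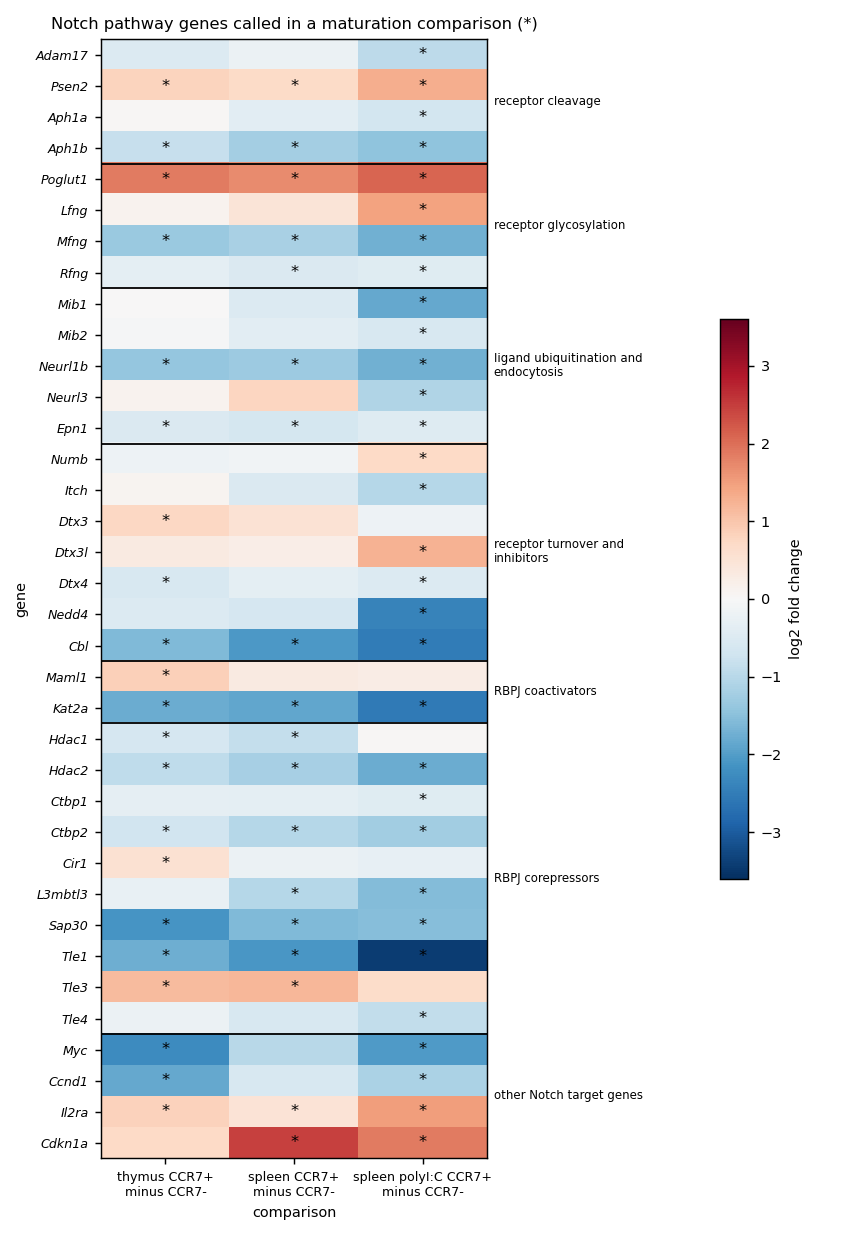
Log2 fold changes, CCR7+ minus CCR7-, are drawn as colours for the 36 listed pathway genes called in at least 1 of the maturation comparisons (asterisk: called), grouped by role. Poglut1 is higher and Mfng, Neurl1b, Cbl, Kat2a, Sap30 and Tle1 are lower in all columns, while Lfng, Mib1 and Nedd4 are called only in the polyI:C column.

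The genes whose signal was most like that of a member over the 15 arrays were found by Pearson correlation, which here mostly reflects the 5 groups and is given as a description. Jag1 was most like Anxa3 (r = 0.992), Gclc (0.985), Atxn1 (0.984), Slco5a1 and Nudt17 (0.983 each). Anxa3, which encodes a phospholipid-binding annexin, averaged 13.13 in thymus CCR7+ cells and 8.54 in thymus CCR7- cells, and 11.19 after polyI:C and 12.83 in untreated spleen CCR7+ cells against 7.003 in spleen CCR7- cells, the same order as Jag1 except that thymus and untreated spleen CCR7+ cells changed places. Notch4 was most like Il6ra (0.992), Mctp1 (0.985), Cxcr3 (0.982), Tgfbi and Gcsam (0.981 each). Il6ra, an interleukin 6 receptor gene, averaged 5.52 in thymus CCR7+ cells and 8.64 in thymus CCR7- cells, and 5.55 after polyI:C and 7.19 in untreated spleen CCR7+ cells against 9.24 in spleen CCR7- cells. Dll1 was most like Clic5 (0.971) and Napb (0.970), and Clic5 averaged 7.18 after polyI:C against 3.96 in untreated spleen CCR7+ cells. Rbpj was most like Nf2 (0.966), Hes1 like Dipk2a (0.956) and Notch2 like Dpy19l1 (0.952), while Jag2, Dll4 and Notch1 reached at most 0.823, 0.909 and 0.860.

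Markers of other cells that carry Notch genes were measured beside these results. Of 10 endothelial and stromal markers, 6 were below the filter value on all arrays of each group, among them Cdh5, which defines vessel endothelium and reached at most 4.12. Their summed signal was 380 to 526 in thymus CCR7+ cells, 536 to 749 in thymus CCR7- cells, 512 to 1297 after polyI:C, 256 to 354 in untreated spleen CCR7+ cells and 228 to 298 in spleen CCR7- cells, so it was lower in mature than in immature cells of the thymus, as Notch4 was. The mean log2 signal of these markers overlapped between thymus CCR7+ cells (4.18 to 4.39) and thymus CCR7- cells (4.31 to 4.43). That mean was higher in untreated spleen CCR7+ cells (4.18 to 4.28) than in spleen CCR7- cells (3.98 to 4.16). In the spleen the summed signal overlapped between untreated CCR7+ and CCR7- cells and was higher after polyI:C, where Notch4 was lower. Its highest array was in the polyI:C group, where Dll1 was high. Its part in these results was not tested. The summed signal of 10 T cell and thymocyte markers was 1135 to 2969 in thymus CCR7+ cells and 367 to 690 in thymus CCR7- cells. It was 563 to 717 after polyI:C and 365 to 462 in untreated spleen CCR7+ cells, against 285 to 314 in spleen CCR7- cells. The 7 B cell markers summed to 397 to 1695 in thymus CCR7+ and 296 to 377 in thymus CCR7- cells, and to 813 to 1271 after polyI:C and 1425 to 4630 in untreated spleen CCR7+ cells, against 749 to 825 in spleen CCR7- cells. Both sums were higher in mature than in immature cells without overlap, except for the B cell markers after polyI:C, which overlapped those of spleen CCR7- cells. The 7 CD172a+ DC markers summed to 1360 to 1681 in thymus CCR7+ cells and 452 to 572 in thymus CCR7- cells, and to 678 to 1056 after polyI:C and 784 to 1456 in untreated spleen CCR7+ cells, against 342 to 722 in spleen CCR7- cells. The 10 macrophage and monocyte markers summed to 3388 to 4523 in thymus CCR7+ and 2452 to 2807 in thymus CCR7- cells, and to 2232 to 3247 after polyI:C and 3695 to 5433 in untreated spleen CCR7+ cells, against 1734 to 3433 in spleen CCR7- cells. The 8 plasmacytoid DC markers reached 3767 to 5113 after polyI:C and 1245 to 2623 in untreated spleen CCR7+ cells, against 1785 to 2100 in spleen CCR7- cells, and overlapped between the thymus groups. Their mean log2 signal overlapped between the spleen groups, with 6.56 to 7.35, 6.87 to 7.61 and 6.94 to 7.42 in the same order. Bst2, which is in this list, averaged 11.93 after polyI:C, 9.21 in untreated spleen CCR7+ cells and 8.51 in spleen CCR7- cells. Thymic epithelial markers (8 genes) summed to 577 to 706 in thymus CCR7+ cells and 1534 to 1714 in thymus CCR7- cells. Their mean log2 signal overlapped between these groups (5.50 to 5.62 and 5.41 to 5.65). They summed to 223 to 254 after polyI:C, 250 to 350 in untreated spleen CCR7+ cells and 230 to 272 in spleen CCR7- cells. The 8 genes of handling stress summed to 33975 to 42358 after polyI:C and 42102 to 65022 in untreated spleen CCR7+ cells, against 56320 to 62491 in spleen CCR7- cells. The part of these markers in the results was not tested.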

How the data were processed

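RNA of sorted DCs (40 ng, 2 rounds of amplification, per the labels' protocols) was hybridised to 15 arrays. The deposited values are log2 signals that the authors made with RMA in affy, per the submitters' processing notes; the sources used here state neither versions nor whether all arrays were normalized together. Array medians ran from 4.86 to 5.00. The number of arrays limits the precision.

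Of 45101 probe sets, 34958 had 1 gene symbol, 932 several and 9211 none listed. A gene took its probe set of highest mean. Genes above 4.39 on 3 or more arrays entered limma (version 3.58.1, R version 4.3.3): 1 fit of the 5 group means, contrasts, empirical Bayes moderation and Benjamini-Hochberg adjustment over 13629 genes. The script was tested on simulated data. Genes to name were all 9 members, up to 3 rises and 3 falls of largest change per pathway list and comparison, the 5 genes most correlated with each member and the sorting genes; the text prints a part of these. The members and lists were chosen with earlier results of these data known. Alternatives were another filter, centring, array weights, other probe set rules, fits of the groups compared, a replicate block and leaving out each array. Motifs were searched in RefSeq promoters (GRCm38.p6).

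Replicate numbers recur in every group and the labels do not say what they mark. Deviations from the group means of same-numbered arrays correlated for thymus CCR7- with spleen CCR7- cells (0.574, 0.524 and 0.556). They also did for thymus CCR7+ with untreated spleen CCR7+ cells (0.462, 0.42 and 0.59), so the numbers appear to pair these samples. In the other comparisons the correlations were uneven, from -0.269 to 0.635. The highest was that of replicate 2 of polyI:C with untreated spleen CCR7+ cells. Thymus CCR7+ with polyI:C cells gave -0.023, 0.341 and 0.377. The reported calls come from the fit without the block and so leave such pairing out. Blocked values are given for some of the calls that they change. No arrays were identical (highest correlation 0.992).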

Additional observations from a re-analysis of the deposited data

Results flagged for a closer look

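The change of Notch4 with maturation differed between the tissues. The thymus change minus the spleen change was -1.74 on the log2 scale by a test of the difference itself (limma interaction contrast, adjusted p = 0.00822). Notch4 was lower on every CCR7+ array than on every CCR7- array of its tissue, in 3 of 3 arrays each. The mean in thymus CCR7+ cells (3.53) lay below the filter value of 4.39, and the other 2 Notch4 probe sets gave -0.14 and -0.32 with no call.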

How the results depend on the processing

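Of 1945 alternative values of the members, 1869 kept their side of the threshold, 58 lost the call and 18 gained one. No called value turned direction, while 52 of the 1144 values uncalled in both fits had the other sign. The calls of Jag1, Notch4 and Hes1 in the 3 maturation comparisons, and of Dll1 after polyI:C, held in all 27 settings. Jag1 and Notch4 had smaller sizes when all probe sets of a gene were averaged (Jag1, thymus CCR7+ minus thymus CCR7-, gave 3.001 in place of 4.91, with 3.76 in untreated spleen and 2.09 after polyI:C, and Notch4 gave -1.68, -0.94 and -1.59). The share of all genes tested that was called moved with the setting too. In thymus it was 37.3% in the main fit, 28.2% with no filter and 46.3% with array weights. It was 32.2% without thymus CCR7- replicate 3, so counts of members are not to be read alone. Counts of members called moved as follows, and the cause was not tested. Spleen maturation had 5, and 3 with a replicate block in the groups compared. PolyI:C against spleen CCR7- cells had 6, then 4 with the mean of probe sets (Notch2 and Rbpj lost) and 5 with the block. Immature cells between tissues had 1, then 2 with array weights, 2 with a replicate block and 4 with the block in the groups compared. Mature cells between tissues had 3, then 1 with median centring and 1 with the groups compared alone. Thymus CCR7+ against polyI:C had 5, then 3 with the mean of probe sets. The tissue difference in maturation had 1, then 2 with a block within maturation state. With single arrays left out the counts were 4 to 6 in thymus, 4 to 6 in untreated spleen, 6 to 6 for polyI:C against CCR7- cells, 3 to 5 for polyI:C against untreated CCR7+ cells, 0 to 2 between immature cells, 1 to 3 between mature cells, 3 to 5 for thymus against polyI:C and 1 to 2 for the tissue difference.

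With the probe set of largest variance, Itch turned to 0.77 after polyI:C against spleen CCR7- cells and, against untreated CCR7+ cells, Kat2b to -0.22 (also with suffixed probe sets left out) and Snw1 to -0.71 after polyI:C; Snw1 turned to -1.04 between mature cells and Il2ra to 0.22 between thymus CCR7+ and polyI:C cells. Psen2, thymus CCR7+ minus thymus CCR7-, turned to -0.0198 with suffixed probe sets left out. Other probe sets of members turned direction for Dll4 (0.0367) and Rbpj (-0.0288) between thymus CCR7+ and polyI:C cells, for Notch2 (0.10 in spleen, 0.32 after polyI:C) and for Notch4 (0.29 in spleen, 0.35 after polyI:C, and 0.0529 and 0.0243 against untreated CCR7+ cells). Other probe sets and the blocks within groups compared or maturation state were chosen after seeing the data.

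Over all genes, fits of the groups compared called 1081 against 2486 genes for polyI:C against untreated CCR7+ cells (1188 with the block) and 802 against 1660 between mature cells (974 without thymus CCR7+ replicate 2 and 2019 with the block). Between immature cells 1112 were called, 1988 with array weights and 3261 with the block. The tissue difference had 433, then 270 without thymus CCR7- replicate 3 and 1462 with the block.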
